A study of Mus musculus with 2 samples.

Results

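Transcription of 9 genes that mark the start of lymphoid development was examined in single cells sorted as LSK progenitors (SCA1 and cKIT on the surface, no lineage markers) from E14.5 fetal liver of CD1 mice, an outbred stock. The members were taken as a fixed list, Il7r, Rag1, Rag2, Dntt, Ebf1, Satb1, Ccr9, Ighm and Ikzf1, 9 of the 32285 genes counted. The WT library came from 2 pooled IκBα WT embryos and the KO library from 3 pooled IκBα KO embryos, IκBα being the inhibitor of NF-κB encoded by Nfkbia. LSK is the population in the cell type entry and the protocol, although LT-HSC stands in the titles. Within a library the embryos cannot be separated, and a single library per genotype allowed no test. All intervals below are 95% intervals for counting error, and leave out how embryos or libraries vary.

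Lymphoid development starts in multipotent progenitors that take up the receptor tyrosine kinase FLT3 and lose megakaryocytic and erythroid potential. Ikaros (Ikzf1) and the chromatin organiser SATB1 act early in these cells, and the μ heavy chain locus (Ighm) is transcribed in a sterile form before it is rearranged. The interleukin 7 receptor (Il7r) then marks the common lymphoid progenitor, the RAG1 and RAG2 recombinase cuts the antigen receptor loci, EBF1 sets the B-cell programme and the chemokine receptor CCR9 serves homing to the thymus. Terminal deoxynucleotidyl transferase (Dntt) adds bases at the cut ends and is known to be scarce in fetal lymphopoiesis.

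After filtering, 3458 WT and 4417 KO cells remained, with a median of 28065 and 19560 UMIs (counted RNA molecules) per cell. WT cells were thus 1.43 times deeper. Nfkbia had 1478 UMIs in the WT and 7 in the KO library. In the KO library 17.4% of cells carried Y-linked UMIs without Xist (called male cells), against 0.116% of WT cells. Only 7 barcodes occurred in both libraries, and Scrublet called 3.90% of WT and 5.80% of KO cells as doublets, of which 0 WT and 1 KO cell lay among the cells with Il7r described below.

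Cells were sorted into 13 gates by marker genes, of which Il7r was the only member used. Cells with a lineage programme (erythroid-like, megakaryocyte-like, macrophage-like, endothelial-like, hepatocyte-like, neutrophil-primed-like, and monocyte/dendritic-primed-like) were set aside first. Of the remaining cells, those with a UMI of Il7r were called Il7r+. Of the rest, those with at least 3 of 6 stem cell markers were called stem-like, and after them those with a UMI of Flt3 were called Flt3+ Il7r-. Stem-like cells could thus carry Flt3, and 43.0% of WT and 30.8% of KO stem-like cells had a UMI of it. A gate on Gata1, Gata2, Zfpm1, Muc13 and Gfi1b was left unnamed because mast cell genes such as Cma1 and Cpa3 led it. Cells in no gate are called ungated, and T-lineage genes (Tcrg-C4, Cd3g, Tcf7) stood among their leading genes beside mast cell genes. By these markers 48.3% of WT and 53.7% of KO cells fell in the erythroid-like gate, although the labels name a lineage-depleted LSK sort.

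The Il7r+ cells numbered 123 in WT (3.56% of cells) and 126 in KO (2.85%), a difference of -0.70 percentage points (-1.53 to 0.0934). Of these, 101 WT and 99 KO cells also had a UMI of Flt3. Flt3+ Il7r- cells numbered 254 in WT (7.35%) and 270 in KO (6.11%), a difference of -1.23 points (-2.38 to -0.10), and stem-like cells 574 and 471. In female cells alone the Flt3+ Il7r- difference was -0.34 points (7.06% and 6.72%), and the Il7r+ difference was -0.30 points there and -0.19 points with gates set on cells thinned to 8000 UMIs. The Il7r+ cells carried B-lineage transcripts, with Cd79a, a part of the pre-B cell receptor, in 13 of 123 WT and 18 of 126 KO cells. All 10 genes of the B-lineage list had a UMI there in both libraries (summed level 181.5 CPM in WT, 252 CPM in KO). Of the T-lineage list 8 of 10 genes were detected in both (45.0 and 102.5 CPM; Cd3e and Bcl11b at 0), and of the innate lymphoid list 6 of 9 (115 and 196 CPM). The median depth was 28844 UMIs in WT and 19178.5 UMIs in KO Il7r+ cells. The erythroid-like cells, which gave the background of free RNA, had medians of 35234 and 23316 UMIs.

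The 2 recombinase genes lie end to end on chromosome 2 (GRCm38, GENCODE vM21), Rag2 at chr2:101624718-101632529 on the plus strand and Rag1 at chr2:101638282-101649501 on the minus strand. Their 3′ ends, where this assay counts, are 5753 bases apart. Both lie within the span of the minus-strand gene B230118H07Rik, whose exons share 80 of 6608 exon bases with Rag1 and 208 of 3424 with Rag2. Dntt lies at chr19:41029275-41059525 on the plus strand. The 250 bases before the RefSeq start (GRCm38.p6 table, which holds 8 of the 9 members, Ighm being the exception) are shown for Rag1 and Rag2, because the 2 genes were detected in the same cells, and for Dntt, because it was not detected in them. The windows are chr2:101649533-101649782 (minus strand), chr2:101624462-101624711 (plus strand) and chr19:41029025-41029274 (plus strand). Each is written 5′ to 3′ on the gene's strand, with capitals for a match to the E2A-type E-box CAGGTG or the Ikaros core TGGGAA on either strand.
Rag1: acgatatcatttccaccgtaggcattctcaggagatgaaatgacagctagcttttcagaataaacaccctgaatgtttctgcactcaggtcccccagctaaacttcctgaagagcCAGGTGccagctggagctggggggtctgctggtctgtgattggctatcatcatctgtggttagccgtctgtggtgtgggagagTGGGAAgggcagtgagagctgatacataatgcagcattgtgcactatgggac
Rag2: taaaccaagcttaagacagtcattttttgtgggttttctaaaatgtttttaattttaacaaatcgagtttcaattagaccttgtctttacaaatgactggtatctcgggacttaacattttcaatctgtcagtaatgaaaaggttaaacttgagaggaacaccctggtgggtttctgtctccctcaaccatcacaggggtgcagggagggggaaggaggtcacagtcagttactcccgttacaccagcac
Dntt: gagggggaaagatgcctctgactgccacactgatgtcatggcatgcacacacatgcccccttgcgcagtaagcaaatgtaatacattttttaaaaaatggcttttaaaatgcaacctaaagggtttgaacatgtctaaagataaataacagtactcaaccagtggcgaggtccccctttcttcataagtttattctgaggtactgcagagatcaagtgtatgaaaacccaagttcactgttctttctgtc
The Rag1 window held 1 match to CAGGTG, 135 to 130 bases before the start, and 1 to TGGGAA, 52 to 47 bases before it, and these did not overlap. The Rag2 and Dntt windows held neither. For comparison, CAGGTG or its reverse complement occurred in 17.2% and TGGGAA in 21.6% of the 32851 windows of this length in the table. A match is a description of letters and not a bound site.

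Dntt was the only member without a UMI in Il7r+ cells. It had 4 UMIs in the whole WT library, each in a different hepatocyte-like cell, and 2 UMIs in KO, 1 in a hepatocyte-like and 1 in a Flt3+ Il7r- cell. Among Il7r+ cells it was seen in 0 of 123 WT cells, which allows a share of cells with a UMI of up to 2.44%, and in 0 of 126 KO cells, which allows up to 2.38% (a limit of 3 counts, which bounds detection and not the share of cells expressing the gene). Rag1 and Rag2 were counted in the same cells, so that recombinase transcripts were present where Dntt was not detectable at this depth.

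The order in which the members appeared was read from the share of cells with a UMI, after each cell was thinned to 8000 UMIs so that the libraries could be compared. Each gene was set against its own share in erythroid-like cells. The share first rose above the upper bound of that background, in both libraries, in stem-like cells for Satb1, Ighm and Rag2, in ungated cells for Ebf1 and Ccr9, and in Flt3+ Il7r- cells for Rag1. This order follows a fixed series of gates (stem-like, ungated, Flt3+ Il7r-, Il7r+) and is not a measured time course. The stem-like gate also holds cells with Flt3, so it is not a stage before Flt3. The ungated gate, led by T-lineage and mast cell genes, is not known to be such a stage either. The place of Ebf1 rests on 2 WT and 6 KO ungated cells, in WT 0.971% against an upper bound of 0.71%. The order was not firm for every gene: with gates set on the thinned cells, Rag2 appeared in ungated and Ccr9 in stem-like cells, and the other members kept their place.

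Satb1 had the broadest early presence among the members that erythroid-like cells largely lacked. Among stem-like cells 20.4% of WT (17.1 to 24.0) and 20.4% of KO cells (16.5 to 24.7) had a UMI, and so did 32.3% and 31.6% of Flt3+ Il7r- cells and 60.3% and 59.7% of Il7r+ cells. In erythroid-like cells the share was 1.46% in WT and 1.66% in KO. It was 35.1% and 22.8% in monocyte/dendritic-primed-like cells and 14.9% and 12.4% in macrophage-like cells. Satb1 was thus not limited to the stem-like and lymphoid gates. Unthinned, Satb1 was seen in 38.7% of WT stem-like and 88.6% of WT Il7r+ cells, and in 29.9% and 77.0% of the KO cells. Its level in stem-like cells in WT was 34.7 CPM (UMIs of the gene scaled to all UMIs of the gate) and in KO 35.6 CPM, against 26.0 and 37.9 CPM in ungated cells, and below the 113 and 137 CPM of Il7r+ cells.

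Ighm rose in more distinct steps. Its share was 7.03% (WT, 5.04 to 9.48) and 5.09% (KO, 3.14 to 7.75) in stem-like cells, 25.4% and 28.1% in Flt3+ Il7r- cells and 66.9% and 77.4% in Il7r+ cells, against 1.10% and 1.18% in erythroid-like cells. In CPM the steps from stem-like to Flt3+ Il7r- to Il7r+ cells were 12.9, 69.0 and 248 in WT and 10.1, 66.9 and 276 in KO. The monocyte/dendritic-primed-like cells also carried it (WT 110 CPM, KO 88.6 CPM), so Ighm transcripts were not limited to the lymphoid gates. The counts do not separate sterile from rearranged Ighm transcripts (chr12:113418558-113422730, minus strand).

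Rag2 passed its background in an earlier gate than Rag1 and was found in more cells in both libraries. In Flt3+ Il7r- cells Rag2 was found in 7 of 248 WT cells (2.82%, 1.14 to 5.73) and 9 of 256 KO cells (3.52%, 1.62 to 6.57), and Rag1 in 3 cells of each library (1.21% and 1.17%). In stem-like cells Rag2 was found in 4 of 555 and 2 of 393 cells and Rag1 in 0 of both. The background in erythroid-like cells was 0.122% and 0.0437% for Rag2, and 0 of 1640 and 2 of 2286 cells for Rag1. In Il7r+ cells the Rag2 shares were 11.6% (6.47 to 18.7, WT) and 17.7% (11.5 to 25.6, KO), and those of Rag1 9.09% (4.63 to 15.7) and 12.9% (7.56 to 20.1). Unthinned, Rag2 was seen in 41 Il7r+ cells of each library, and Rag1 in 19 WT and 23 KO cells. The earlier appearance of Rag2 rests on 4 WT and 2 KO stem-like cells.

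Rag1 was carried by few cells. Of its 65 UMIs in the WT library 69.2% lay in Il7r+ cells, and of its 67 UMIs in KO 61.2%, although these cells made up 3.56% and 2.85% of the libraries. The 5 cells with the most UMIs held 62.2% of the Il7r+ UMIs of Rag1 in WT and 53.7% in KO. For Rag2 the same share was 28.4% and 26.2%.

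Ebf1 and Ccr9 were found in few stem-like and ungated cells. Ebf1 was present in 1 of 555 WT and 3 of 393 KO stem-like cells, in 3.23% (WT, 1.40 to 6.26) and 5.86% (KO, 3.32 to 9.48) of Flt3+ Il7r- cells, and in 28.1% (20.3 to 37.0) and 31.5% (23.4 to 40.4) of Il7r+ cells, against 0.305% and 0.437% of erythroid-like cells. Ccr9 was found in 5.65% and 7.81% of Flt3+ Il7r- cells and in 15.7% (9.73 to 23.4) of WT and 27.4% (19.8 to 36.2) of KO Il7r+ cells, against 0.366% and 0.394% of erythroid-like cells. In ungated cells Ccr9 was found in 3.40% (WT) and 3.57% (KO), at 6.33 and 5.12 CPM, and Ebf1 in 0.971% (2 cells) and 1.95% (6 cells). Without thinning, Ebf1 had 4 UMIs in 4 of 244 WT cells and 49 UMIs in 11 of 401 KO cells, 0.905 and 9.29 CPM, and the KO level was not below the 8.83 CPM of KO Flt3+ Il7r- cells. After thinning, Ebf1 was also found in 4 of 50 WT and 4 of 73 KO endothelial-like cells (8% and 5.48%), so it was not limited to the lymphoid gates. Single Il7r+ cells held up to 39 Ebf1 UMIs in WT and 32 in KO. Of all Ebf1 UMIs, 69.2% in WT and 59.0% in KO lay in Il7r+ cells, whereas the corresponding shares for Ccr9 were 35.2% and 41.7%.

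Ikzf1 showed no comparable onset. Among stem-like cells 42.3% (WT) and 44.5% (KO) had its transcripts, as did 40.3% (37.9 to 42.7) and 39.8% (37.8 to 41.8) of erythroid-like cells. Its Il7r+ level was 129 CPM (WT) and 144 CPM (KO), compared with 73.8 and 75.6 CPM in erythroid-like cells, a ratio of 1.75 and 1.91. Ikzf1 was therefore the member with the smallest contrast between gates, whereas the Il7r+ level of Rag2, Ebf1, Satb1, Ccr9 and Ighm was at least 33.8 times the erythroid-like level in both libraries. By the rule above it first passed its background in Flt3+ Il7r- cells, but only by a share of 42.7% in WT against an upper bound of 42.7% (42.74 and 42.72 before rounding).

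Il7r defines the Il7r+ gate, so its place in the order was read from cells before the Il7r rule was applied. Of cells with Flt3 that did not meet the stem criterion, 13.6% in WT (10.1 to 17.8) and 17.5% in KO (13.6 to 21.9) had a UMI of Il7r. It was found in 2.26% (1.21 to 3.83) and 1.25% (0.407 to 2.89) of cells that met the stem criterion, and in 2.52% and 3.70% of cells with neither. Outside the lymphoid gates it was highest in monocyte/dendritic-primed-like cells (WT 23.6 CPM, KO 12.9 CPM), and it was found in 0.610% and 0.306% of erythroid-like cells.

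**Figure D1:**
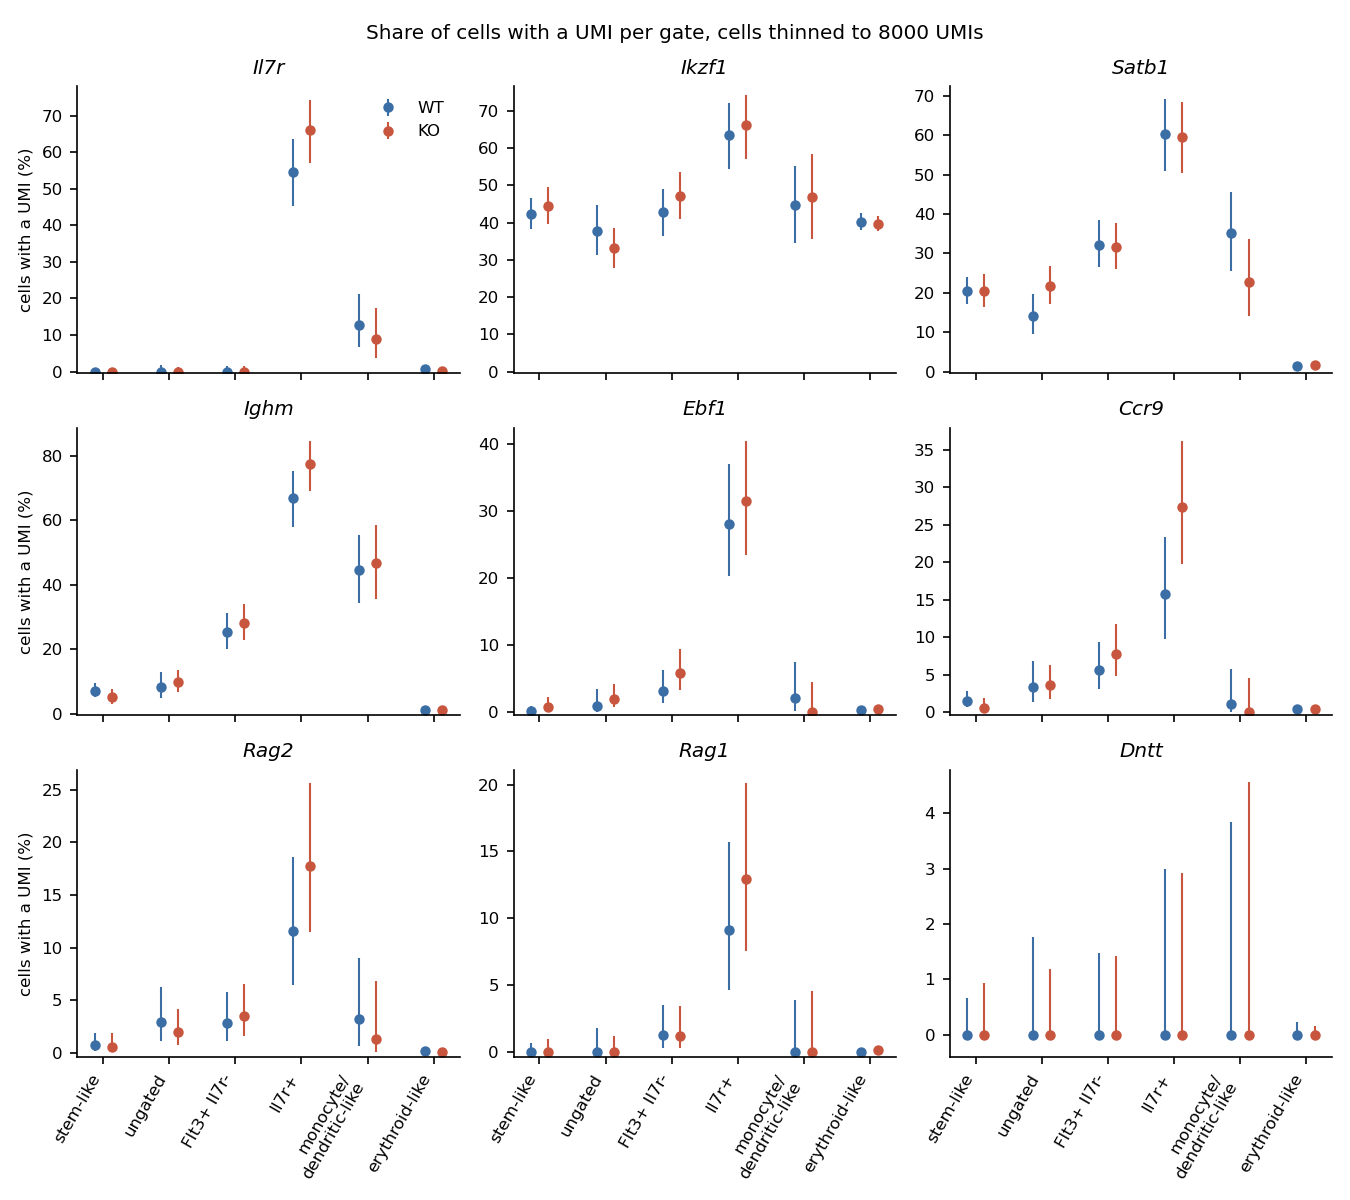
Share of cells with a UMI (vertical axis, percent, scale differs between panels) of each member in 6 gates, after thinning to 8000 UMIs, for WT (blue) and KO (red), with 95% Clopper-Pearson intervals. All members but Dntt are highest in Il7r+ cells, Ikzf1 also reaches 40.3% of WT erythroid-like cells, and Dntt is at 0 in every gate shown. Il7r is at 0 in 3 gates by the gate rule.

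Within the Flt3 and Il7r gates Ighm, Satb1, Ebf1, Ccr9 and Rag2 were found in more cells at each step in the number of Il7r UMIs, whereas Rag1 in WT and Ikzf1 in both libraries did not rise at each step. Thinned Flt3+ Il7r- and Il7r+ cells were pooled and grouped by Il7r UMIs, giving 303 WT and 298 KO cells with 0, 48 and 44 with 1, and 18 and 38 with 2 or more. After thinning, 66 of 121 WT and 82 of 124 KO Il7r+ cells kept a UMI of Il7r. The other Il7r+ cells fell in the bin of 0, which is therefore not made up of Flt3+ Il7r- cells alone. Ighm was found in 33.0%, 60.4% and 83.3% of the cells with 0, 1 and 2 or more in WT, and in 34.6%, 72.7% and 86.8% in KO. Ebf1 was found in 6.93%, 20.8% and 61.1% in WT and in 9.06%, 20.5% and 47.4% in KO, and Ccr9 in 6.93%, 12.5% and 33.3% and in 10.7%, 15.9% and 39.5%. Satb1 went from 36.3% to 60.4% and 77.8% in WT and from 34.6% to 54.5% and 73.7% in KO.

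Rag1 and Rag2 had their lowest shares in cells without an Il7r UMI after thinning, although 9 WT and 18 KO cells there had Rag2. Of these, 7 WT and 9 KO cells were Flt3+ Il7r- cells, and the rest were of the Il7r+ gate. Rag2 was found in 2.97% (1.37 to 5.56) of WT cells without, 16.7% (7.48 to 30.2) with 1 and 22.2% (6.41 to 47.6) with 2 or more Il7r UMIs, and in 6.04%, 11.4% and 21.1% of KO cells. Rag1 was found in 1.98%, 12.5% and 11.1% in WT and in 1.68%, 9.09% and 26.3% (13.4 to 43.1) in KO. Ikzf1 was found in 45.5%, 70.8% and 61.1% in WT and in 51.3%, 50% and 73.7% in KO. In KO the Rag2 intervals of cells with 0 (3.62 to 9.38) and 1 Il7r UMI (3.79 to 24.6) overlapped. The WT bin of 2 or more Il7r UMIs held 18 cells, and for Rag1 and Rag2 its interval overlapped that of the cells with 1 UMI. Flt3 itself stayed between 45.5% and 61.1% in WT and between 47.7% and 55.3% in KO over the same bins.

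**Figure D2:**
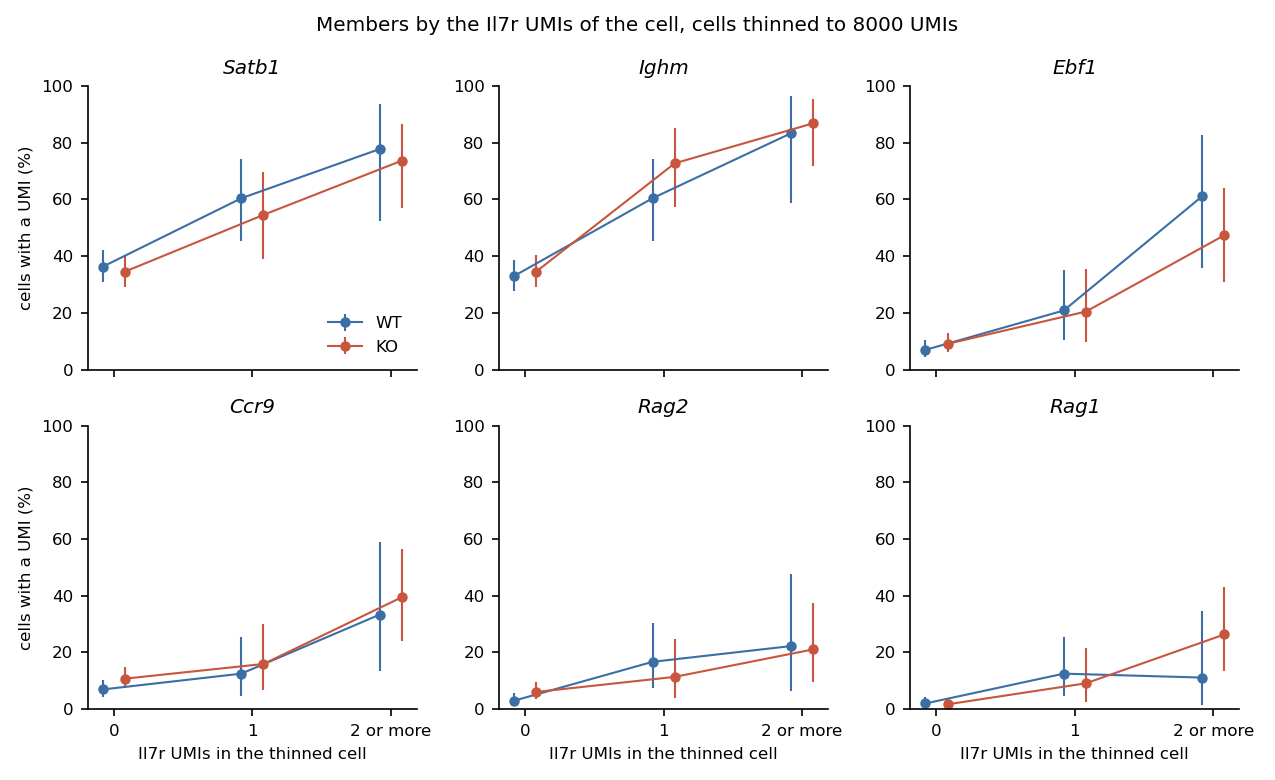
Share of cells with a UMI (percent) of 6 members against the Il7r UMIs of the cell (0, 1, 2 or more) in Flt3+ Il7r- and Il7r+ cells thinned to 8000 UMIs, WT blue and KO red, with 95% Clopper-Pearson intervals. In both libraries all 6 members are lowest in cells without Il7r UMIs after thinning, some of which are of the Il7r+ gate. The WT bin of 2 or more UMIs holds 18 cells.

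Co-detection was examined in Il7r+ cells to see which members shared a cell. Unthinned counts are given first, because thinning removes most of the UMIs of the rarer genes. Ighm was found in all 45 Ebf1+ cells of WT and all 52 of KO (lower bounds 92.1% and 93.2%), and in 38 of 40 WT and 43 of 44 KO Ccr9+ cells. Over all Il7r+ cells Ighm was found in 86.2% and 88.1%. Satb1 was present in 43 of 45 WT and 43 of 52 KO Ebf1+ cells, against 88.6% and 77.0% of all Il7r+ cells.

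The recombinase genes overlapped with Ebf1. Of the Rag1+ cells, 17 of 19 in WT (89.5%, 66.9 to 98.7) and 17 of 23 in KO (73.9%, 51.6 to 89.8) had Ebf1, against 36.6% and 41.3% of all Il7r+ cells. Rag2 was present in 15 of 19 WT (78.9%, 54.4 to 93.9) and 15 of 23 KO Rag1+ cells (65.2%, 42.7 to 83.6), against 33.3% and 32.5% overall. In the reverse direction Rag1 was found in 15 of the 41 Rag2+ cells of each library (36.6%). Of the Ebf1+ cells, 57.8% in WT and 50% in KO had Rag2, and 37.8% and 32.7% had Rag1. Thinned to 8000 UMIs, Ebf1 was present in 9 of 11 WT and 11 of 16 KO Rag1+ cells, and Rag2 in 4 of 11 and 6 of 16.

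Ccr9+ cells had Rag1 and Rag2 less often than Ebf1+ cells did. Rag1 was found in 5 of 40 Ccr9+ WT cells (12.5%, 4.19 to 26.8) and 11 of 44 in KO (25%, 13.2 to 40.3). These intervals include the shares over all Il7r+ cells of 15.4% and 18.3%. The KO interval also includes the share of KO Ebf1+ cells with Rag1, given above. Rag2 was found in 32.5% and 31.8% of Ccr9+ cells, against 33.3% and 32.5% of all Il7r+ cells. Of the Cd79a+ cells, which carried the most advanced B-lineage transcripts, 2 of 13 in WT and 7 of 18 in KO had Ccr9, whereas 13 and 17 had Ebf1, 11 and 14 had Rag2 and 10 and 10 had Rag1. For Ccr9 this was 15.4% in WT, below the 32.5% of all WT Il7r+ cells. In KO it was 38.9%, not below the 34.9% of all KO Il7r+ cells.

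The cells with few members had mostly Satb1 or Ighm. Of 6 members (Ighm, Satb1, Rag2, Ebf1, Ccr9, Rag1), thinned Il7r+ cells held a single one in 39 WT and 23 KO cells, and this was Satb1 in 19 and 7 and Ighm in 16 and 14. In the cells with a pair, it was Ighm with Satb1 in 20 of 34 WT and 23 of 35 KO cells. Of the 6 members, Ighm (66.9% of WT, 77.4% of KO) and Satb1 (60.3%, 59.7%) were the most often detected in thinned Il7r+ cells. Ebf1 came next (28.1%, 31.5%). The counts thus partly follow from these shares and give no order. No member was found in 12 WT and 15 KO cells, 5 of the 6 in 3 WT and 4 KO cells, and all 6 in 0 WT and 2 KO cells. In the Flt3+ Il7r- cells a single member was Satb1 in 49 of 84 WT and 43 of 81 KO cells and Ighm in 25 and 27. There the Rag1+ cells held Rag2 in 0 of 6 WT and 0 of 4 KO cells in unthinned counts.

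**Figure D3:**
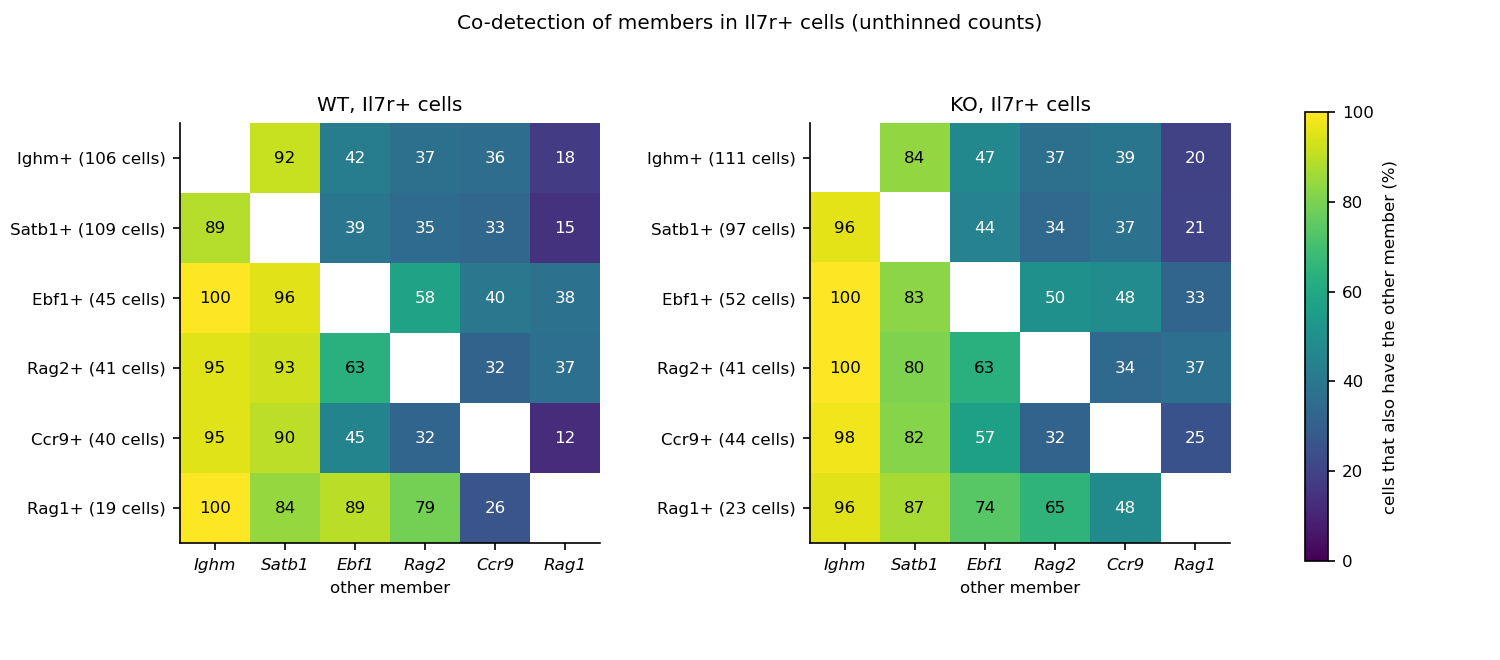
Percent of Il7r+ cells with the row's member that also had the column's member, in unthinned counts, for WT (left) and KO (right), with the number of cells beside each row. Rag1+ cells had Ebf1 in 89.5% (WT) and 73.9% (KO) and Rag2 in 78.9% and 65.2%, and the Ighm column lies between 89.0% and 100%.

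KO and WT were then compared in Il7r+ cells by the UMIs summed over the cells. None of the 8 detected members lay 1.5-fold apart in either direction. Among all 7676 genes with at least 50 UMIs there, 2.66% were at least 1.5-fold higher and 2.79% at least 1.5-fold lower in KO. The median log2 KO/WT was 0.34 over the 8 members, among them Il7r, which the gate rule used, and 0.01 over all genes. The members not used to gate lay between 0.08 (Ccr9) and 0.43 (Rag1 and Rag2). KO cells were shallower, and the single UMI of Il7r that admits a cell to the gate stands for a higher CPM in a shallower cell. Il7r itself, part of the gate rule, was at 92.95 CPM (WT) and 133 CPM (KO). Its log2 KO/WT was 0.51, and 0.37 to 0.54 under 8 other settings. With gates set on thinned cells, the log2 KO/WT was -0.06 for Ighm, -0.02 for Ikzf1 and -0.52 for Ccr9. For Rag1, Rag2, Ebf1 and Satb1 the sign held under all 8 other settings, these gates among them. Beyond these settings, whether the depth of the gated cells bears on the member levels was not tested.

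Ebf1 had 358 UMIs in WT and 322 in KO, 97.6 CPM (87.7 to 108) against 130 CPM (116 to 144), a log2 KO/WT of 0.41 (0.19 to 0.63). The value stayed between 0.26 and 0.48 under 8 other settings. Satb1 had 414 and 340 UMIs and a log2 KO/WT of 0.28 (0.07 to 0.49). Both intervals lie above 0 for counting error, and the difference between embryos is unknown.

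The recombinase genes gave wide intervals. Rag1 had 45 UMIs in WT and 41 in KO, 12.3 CPM (8.95 to 16.4) and 16.5 CPM (11.8 to 22.4), a log2 KO/WT of 0.43 (-0.22 to 1.07). Rag2 had 67 and 61 UMIs, 18.3 and 24.5 CPM, a log2 KO/WT of 0.43 (-0.10 to 0.95). The Rag1 UMIs were divided unevenly: in Il7r+ cells without Flt3, the 22 WT cells had 1 UMI and the 27 KO cells 20 UMIs, and in those with Flt3, 44 and 21 UMIs in 101 and 99 cells. The Flt3-negative values rest on 1 WT and 5 KO cells with a Rag1 UMI.

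Ighm had 909 and 686 UMIs, 248 CPM (232 to 264) against 276 CPM (256 to 297), a log2 KO/WT of 0.15 (0.01 to 0.30), and the sign turned with gates set on thinned cells (-0.06). Ikzf1 was at 0.16 (-0.05 to 0.36), and was -0.02 with those gates. Ccr9 had 186 and 133 UMIs and a log2 KO/WT of 0.08 (-0.26 to 0.41), but -0.52 with gates on thinned cells, -0.29 in female cells and 0.45 where at least 2 UMIs were asked of the gate. Its share of thinned cells was 11.7 points higher in KO (0.861 to 22.3), whereas unthinned it was seen in 32.5% of WT and 34.9% of KO cells. The direction for Ccr9 therefore differed with the measure. The share differences of the other members in Il7r+ cells, in KO minus WT points, were 3.81 for Rag1, 6.17 for Rag2, 3.35 for Ebf1, -0.65 for Satb1, 10.5 for Ighm and 2.49 for Ikzf1, each with an interval that includes 0.

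The male cells of the KO library were also examined, since WT held almost none. Of the KO Il7r+ cells 101 were female and 20 male. Rag1 was seen in 18.8% of the female and 20% of the male cells, Ebf1 in 36.6% and 55.0%, Ccr9 in 32.7% and 40.0%, and Ighm in 87.1% and 90.0%. The 119 female WT cells had Rag1 in 16.0%, Ebf1 in 37.0%, Ccr9 in 33.6% and Ighm in 86.6%. The level of Ccr9 was 42.8 CPM in female and 105 CPM in male KO cells, against 52.4 CPM in female WT cells.

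Markers of other cell types in the Il7r+ cells were compared as well. The 6 hepatocyte markers together had 42.5 CPM (WT) and 77.6 CPM (KO), with all 6 detected in both, beside 37.9 and 71.2 CPM in erythroid-like cells. The 7 monocyte/dendritic markers, of which Irf8 is 1, had 72.8 CPM in WT cells and 135 CPM in KO cells, beside 10.1 and 10.4 CPM in erythroid-like cells. The 7 erythroid markers summed to 209 and 116 CPM, the 8 neutrophil markers to 662 and 498 CPM (Cebpe and Ngp at 0 in both), the 7 macrophage markers to 5.997 and 5.63 CPM, and the 6 stem cell markers to 94.6 and 68.8 CPM. Their part in the member differences was not tested.

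In Flt3+ Il7r- cells 5 members had at least 50 UMIs, and none lay 1.5-fold apart, against 2.36% of 8762 genes higher and 1.62% lower in KO. Satb1 had 46.6 CPM (WT) and 58.3 CPM (KO) (log2 0.32, 0.08 to 0.56), Ikzf1 at 71.4 and 84.4 CPM (0.24, 0.04 to 0.44) and Ebf1 at 6.31 and 8.83 CPM (0.48, -0.18 to 1.15). Ighm (-0.04, -0.26 to 0.17) and Ccr9 (-0.11, -0.54 to 0.33) were lower in KO by less than the counting error, and turned to 0.22 and 0.71 with gates on thinned cells. Flt3 was at 69.9 and 90.5 CPM, as part of the rule. Rag1 (6 and 4 UMIs) and Rag2 (21 and 25) were under the minimum.

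In stem-like cells 1 of 4 members with at least 50 UMIs lay past the 1.5-fold line, Ccr9, which was lower in KO, against 1.54% of 10096 genes higher and 2.09% lower. Ccr9 had 61 UMIs in 12 of 574 WT cells and 4 UMIs in 3 of 471 KO cells, a log2 KO/WT of -3.13 (-5.05 to -1.70) that lay between -3.46 and -2.89 under 8 other settings. The 5 WT cells with the most UMIs held 54 of the 61, so the difference rests on few cells of 1 library. Among the 12 WT cells 10 had Flt3, 11 Satb1 and 8 Ighm, against 43.03%, 38.68% and 12.02% of all WT stem-like cells. The thinned shares, 1.44% (0.624 to 2.82) and 0.509% (0.0617 to 1.83), had overlapping intervals. Satb1, Ighm and Ikzf1 were at 0.03, -0.35 and 0.06.

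**Figure D4:**
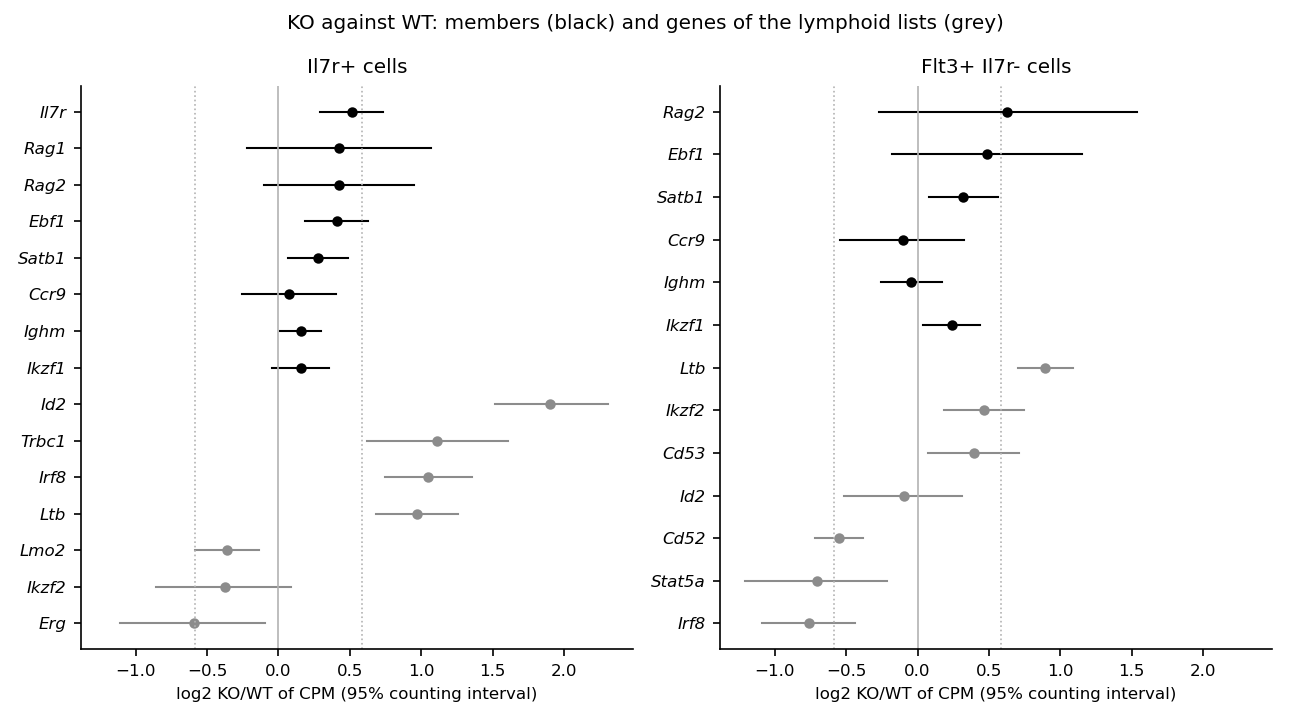
Log2 KO/WT of CPM (horizontal axis) in Il7r+ cells (left) and Flt3+ Il7r- cells (right), with 95% counting intervals, for members (black) and genes of the lymphoid lists (grey); dotted lines mark a 1.5-fold change, and Ly6d (6.64 in Il7r+ cells) is not drawn. All members lie inside the dotted lines except Rag2 in Flt3+ Il7r- cells (0.63, on 46 UMIs), whereas Id2, Trbc1, Irf8 and Ltb lie to the right of them in Il7r+ cells.

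The other genes of the lymphoid programme were taken from 6 lists. Over these lists, 8 genes with at least 50 UMIs in Il7r+ cells were at least 1.5-fold higher in KO (Ly6d, Ltb, Irf8, Id2, Id3, Vpreb2, Tcf7 and Trbc1) and 1 was lower (Erg), beside the 2.66% and 2.79% of all genes. The minimum counts the UMIs of both libraries together. Ly6d (2 UMIs in WT, 135 in KO), Tcf7 (15 and 42) and Vpreb2 (28 and 50) reached it mainly through KO, so the count is a description only. By list, 3 of 20 measured early lymphoid regulators were higher and 1 lower, 2 of 17 surface and signalling genes, 1 of 6 B-lineage, 2 of 3 T-lineage and 1 of 3 innate lymphoid genes (Id2, listed under the regulators too) were higher, and 0 of 2 plasmacytoid dendritic genes passed. The list medians were -0.02, 0.18, 0.40, 1.11, 0.46 and 0.04 on the log2 scale.

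Ly6d, a surface protein that separates B-lineage-specified from uncommitted lymphoid progenitors, had the highest log2 KO/WT of the list genes in Il7r+ cells. It had 2 UMIs in 1 of 123 WT and 135 UMIs in 14 of 126 KO Il7r+ cells, a log2 KO/WT of 6.64 (4.76 to 9.70). In the other gates it was nearly absent, with 2 UMIs in WT and 4 in KO. Of the 14 KO cells 12 were female and 2 male, 11 had Ebf1 and 7 Cd79a. A single cell held 45 of the 135 UMIs, and the 5 cells with the most UMIs held 117 of them. Cd79a itself had 35.2 CPM (WT) and 47.0 CPM (KO) (log2 0.42, 0.05 to 0.79).

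Id2, an inhibitor of E proteins, was counted 76 times in 23 WT and 193 times in 43 KO cells, a log2 KO/WT of 1.91 (1.52 to 2.31), and 1.11 with gates on thinned cells. Ltb, which encodes lymphotoxin β, was at 48.3 and 94.5 CPM (log2 0.97, 0.68 to 1.26). It was 0.60 with those gates and fell short of 1.5-fold with at least 2 UMIs asked of the gate (0.55) and as a mean over cells (0.41), and 1 WT cell held 53 of its 177 UMIs. Irf8, a regulator of dendritic and B cells that also served as 1 of 7 markers of the monocyte/dendritic gate, was at 42.0 and 86.8 CPM (log2 1.05), with UMIs in 54 WT and 41 KO cells. Trbc1, a T-cell receptor constant gene, was at 16.4 and 35.4 CPM (log2 1.11, 0.62 to 1.61). At the low end Erg, a stem cell factor, was at 29.7 and 19.7 CPM (log2 -0.59, -1.11 to -0.09), with Ikzf2 at -0.38 and Lmo2 at -0.36. The stem cell markers, as given above, were also lower in the KO gate.

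In Flt3+ Il7r- cells Ltb was again higher in KO, with 60.2 CPM (WT) and 112 CPM (KO) (log2 0.90, 0.70 to 1.09), and counted in 137 and 154 cells. Irf8 there was lower, at 41.3 and 24.4 CPM (log2 -0.76, -1.09 to -0.44), as was Stat5a (-0.70). Cd52 was at -0.55 (-0.72 to -0.38), and Ikzf2 and Cd53 were at 0.46 and 0.39. The direction of Irf8 thus differed between the gates, which was not tested.

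The gene whose pattern was most like that of each member was sought over the 13 gates of both libraries (26 points, Pearson r of log2(CPM + 1), 12633 genes with at least 100 UMIs). These points share libraries and gates and are no replicates. The gate rule leaves Il7r at 0 in the stem-like, ungated, Flt3+ Il7r- and Gata gates. The nearest gene of Il7r therefore partly restates that rule. The nearest genes were Kcng1 for Rag1 (r = 0.92, followed by Vpreb2 and Rag2), Mzb1 for Rag2 (0.96), Gm19331 for Ebf1 (0.89), Tmem173 for Satb1 (0.96), Trbc2 for Ccr9 (0.91), Ifi209 for Ighm (0.95), Tnfsf11 for Il7r (0.85) and Apobec3 for Ikzf1 (0.86). Rag2 was among the 3 nearest genes of both Rag1 (0.91) and Ebf1 (0.88).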

How the data were processed

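Per the submitters' processing notes the 10x 3′ v3 reads were processed with Cell Ranger 6.0.0 on mm10 (GRCm38), 1 matrix per genotype, and the authors deposited unnormalized UMI counts. A cell needed 1000 or more genes and no more than 20% of its UMIs from mitochondrial genes. The mitochondrial limit is that of the study, whose gene minimum is given only as lying below the first quartile, so 1000 was chosen here. This removed 382 of 3840 WT and 511 of 4928 KO barcodes. The libraries held 109122324 and 100029143 UMIs.

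Members and lists were chosen with earlier results of these data known, and the gate thresholds were set after the marker distributions had been seen, without the members. A gate needed at least 5 of 6 hepatocyte, 3 of 6 endothelial, 4 of 7 macrophage, megakaryocyte, erythroid or monocyte/dendritic, 4 of 8 neutrophil, then 1 UMI of Il7r, 3 of 6 stem cell markers, 1 UMI of Flt3 or 3 of 5 Gata gate markers, applied in this order. The gates are new and need not match the cell types of the study. Scrublet (in scanpy 1.11.5, with an expected rate of 5%) marked doublets, which were kept except in 1 alternative.

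Shares used cells thinned to 8000 UMIs, which left out 115 WT and 326 KO cells, and have Clopper-Pearson intervals, from whose bounds the interval of a difference in shares was combined. CPM (a gene's UMIs summed over a gate and scaled to all UMIs there) has exact Poisson intervals, and log2 KO/WT an exact conditional interval. No test was run. A gene counted as 1.5-fold apart needed at least 50 UMIs over both libraries in the gate. For a count of 0 the upper limit is 3 counts.

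All members are described. From the lists, the rule named 3 genes at either end of the log2 KO/WT order, of those with 100 UMIs or more, in Il7r+ and in Flt3+ Il7r- cells, and genes over 10 times their erythroid-like level in Il7r+ cells of both libraries, of which some are described. Id3 and the genes that lead or check a gate fall outside it and were named after their values were seen. Some items are not reported here. The calculations (Python 3.11.15, numpy 2.4.6, scipy 1.17.1) were tested on simulated data. Alternatives covered scaling, doublets, the gene filter, sex, thinning, the gate minimum and gates set on thinned cells.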

Additional observations from a re-analysis of the deposited data

How the results depend on the processing

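No paired analysis was possible because there was 1 library per genotype and the result comes from no test. Of 258 values under other settings, 241 stayed within the counting interval of the reported value (counts of genes, within 1.5 times it), and small differences could still turn sign, as those of Ccr9 and Ighm in Flt3+ Il7r- cells did in 4 of 8 settings each. In Il7r+ cells the log2 KO/WT of Ighm was -0.059 with gates on thinned cells (0.15 as reported), and that of Ccr9 was -0.52 with those gates, 0.45 with at least 2 UMIs and -0.29 in female cells (0.08 as reported). The Il7r+ gate on thinned cells held 83 WT and 94 KO cells. The share of WT Rag1+ cells with Ebf1 was 100% with at least 2 UMIs (81.8% thinned), and the share with Rag2 was 78.9% in WT and 65.2% in KO without thinning (36.4% and 37.5% thinned), as thinning lowers detection. The number of list genes at least 1.5-fold higher in Il7r+ cells was 3 with a minimum of 200 UMIs (8 as reported), and the number lower was 2 with a minimum of 20 UMIs and 0 with 200 (1 as reported), as the minimum sets which genes count. The other scalings shifted the median of all genes by -0.02 on the log2 scale. In this data, with 1 library per genotype, differences between embryos cannot be told apart from genotype, and members with few UMIs, Rag1 and Rag2 above all, had intervals wider than a 1.5-fold change.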

Other observations

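Igll1, a surrogate light chain gene, had 86 UMIs in 6 WT and 76 UMIs in 5 KO Il7r+ cells, and 1 cell held up to 30 and 20 of them. Pax5 was found in 9 WT and 11 KO Il7r+ cells.

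Tcf7+ Il7r+ cells, 4 in WT and 11 in KO, held Ebf1 in 0 and 1 and Rag1 in 0 of both, while Gata3 was found in 3 and 6 and Satb1 in 4 and 7. The Id2+ Il7r+ cells held Rag1 in 0 of 23 in WT and 7 of 43 in KO, and Ebf1 in 3 and 13. The number of cells is small, and these values are a description.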
